A study of Mus musculus with 108 samples.

Results

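The hemangioblast libraries with reporter activity comprised 14 of the 108 samples of the series. They were chosen by their labels alone, as the HB libraries of the Medium, High and Medium/High gates (9 libraries, here called the high side) and of the Low gate (5 libraries). For each replicate the lists of the high side were pooled, with each distinct fragment counted once, and set against the Low list, which gave 5 high sets and 5 Low sets. The 14 lists held 320877 of the 2288814 fragments listed in the 95 sorted libraries, and 259243 of them were distinct. The comparison addresses whether fragments that drove much reporter protein in hemangioblasts differed from those that drove little, in their place relative to genes, their length and their sequence.

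All groups used here came from HM-1, a mouse embryonic stem cell line, differentiated in serum. Hemangioblast cells (HB) were taken by their surface receptor FLK1 from embryoid bodies, undifferentiated cells formed the ES group, and HE1 was the first stage of hemogenic endothelium. Every cell population carried a pool of constructs at the Hprt locus, in which 1 piece of open chromatin, cut by the Tn5 transposase, stood before a minimal HSP68 promoter and the gene for Venus-YFP. Sorting by YFP brightness used 4 gates in replicates 1 to 4 (Negative, Low, Medium, High) and 3 in replicate 5 (Negative, Low, Medium/High). Cells without a construct library (HM-1) and the cloned plasmid pools were sequenced as references. The lists hold DNA, so markers of the hemangioblast could not be examined in them. Each fragment was read outside its own genomic place, at 1 site, in cells that passed through all earlier stages with it.

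The hemangioblast is the mesodermal cell that gives rise to both endothelium and blood. It carries the VEGF receptor FLK1, encoded by Kdr, and its program depends on ETS factors, GATA2, TAL1 and LMO2, with BMP and VEGF signals acting on it. Promoters are the stretches at which transcription begins and are often rich in GC and in sites for SP, KLF, NRF1 and NFY proteins. Distal elements lie away from gene starts and more often hold sites for factors with restricted expression, such as GATA, RUNX, TEAD and AP-1 proteins. In a reporter assay of this kind either class can raise expression from the minimal promoter.

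The sequences below are the middle 300 bases of 3 promoter loci that were among the first 3 of their class and direction in the comparison of single loci between the high and Low sets, which is given further on. None of these loci passed the test, and they are shown as the pieces of chromatin on which the ranking rests. They were read from the plus strand of mm10 (GRCm38, RefSeq). The Syngr2 window (chr11:117810446-117810745) lay in the first part of a gene for a membrane protein of vesicles and came from a locus listed more on the high side. The windows of Mpdu1 (chr11:69662421-69662720), needed for protein glycosylation, and Bmpr1a (chr14:34502691-34502990), a BMP receptor, came from loci with a higher mean level in Low. The level is fragments per 10000 listed fragments of a set, in which single fragments of small sets weigh heavily. In plain numbers the high sets held more fragments of both loci. Capitals mark matches on either strand to any of the 14 motifs searched.
Syngr2: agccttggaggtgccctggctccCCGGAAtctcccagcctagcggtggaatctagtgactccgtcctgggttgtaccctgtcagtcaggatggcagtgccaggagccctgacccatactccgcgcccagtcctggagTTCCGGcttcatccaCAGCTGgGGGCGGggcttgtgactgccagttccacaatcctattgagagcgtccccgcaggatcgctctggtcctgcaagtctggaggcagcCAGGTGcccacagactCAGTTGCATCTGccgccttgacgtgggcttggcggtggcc
Mpdu1: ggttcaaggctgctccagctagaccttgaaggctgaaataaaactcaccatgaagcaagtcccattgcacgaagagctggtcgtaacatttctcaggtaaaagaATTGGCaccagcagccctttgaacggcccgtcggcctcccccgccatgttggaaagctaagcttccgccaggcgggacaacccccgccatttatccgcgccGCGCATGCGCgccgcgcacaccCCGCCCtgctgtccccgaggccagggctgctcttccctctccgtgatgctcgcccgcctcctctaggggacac
Bmpr1a: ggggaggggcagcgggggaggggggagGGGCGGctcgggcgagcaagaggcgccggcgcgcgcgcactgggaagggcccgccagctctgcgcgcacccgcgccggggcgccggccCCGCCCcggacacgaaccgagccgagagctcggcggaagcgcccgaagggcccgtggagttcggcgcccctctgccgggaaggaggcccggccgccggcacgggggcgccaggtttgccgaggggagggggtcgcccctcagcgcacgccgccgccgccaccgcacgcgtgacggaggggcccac
The motifs that matched were ETS (CCGGAA), the TAL1 type of E-box (CAGNTG), SP/KLF (GGGCGG), NRF1 (GCGCATG) and NFY (GCCAAT). The Syngr2 window held 2 ETS, 4 E-box and 1 SP/KLF match. The Mpdu1 window held 2 NRF1 matches that overlap on opposite strands, 1 SP/KLF and 1 NFY match, and the Bmpr1a window held 2 SP/KLF matches.
Among equal windows of the tested promoter loci (8861 windows), SP/KLF matched in 72.5%, the E-box in 42.4%, ETS in 27.3%, NFY in 18.8% and NRF1 in 5.99%. In the promoters of all RefSeq genes (32851 promoters of 300 bases), the E-box matched in 51.4% and SP/KLF in 35.7%. A match is a string of letters and says nothing about binding.

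The sets differed widely in size. The high sets held 99044, 89848, 36236, 4145 and 991 fragments in replicates 1 to 5, and the Low sets held 35547, 33528, 1239, 2786 and 1040. The 229 listed HB fragments on sequences other than the 21 main chromosomes were not used. Fragment measures were therefore taken after equal numbers were drawn from both sides of a replicate, 35547, 33528, 1239, 2786 and 991 per side, as the mean of 100 draws. The lists carry no read numbers, so the depth behind a single fragment is unknown, and a fragment seen once weighs as much as one seen often. Of the listed fragments, 80.1% to 94.3% on the high side and 64.4% to 82.9% on the Low side had an identical fragment in a plasmid list. Fragments identical to one amplified from HM-1 cells without a library numbered 45 to 1417 in the high sets and 17 to 178 in the Low sets. Nothing in the labels says that the replicates were separate cultures, so the p-values measure the spread between these samples, which may be technical.

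Identical fragments were counted between all pairs of HB libraries to see which lists belonged together, and some libraries stood apart from their labels. The plot of fragments shared between libraries shows these counts. Within replicate 4, pairs of libraries shared 22.7% to 41.5% of the smaller list. In replicate 1 the Low list shared 26.0% of its fragments with Medium and 20.3% with High. The library labelled HB Low of replicate 2 shared 3.76% of its fragments with High and 1.31% with Medium of its own replicate, but 27.2% with Medium, 20.0% with High and 17.0% of its fragments with Low of replicate 1. HB High of replicate 3 shared 19.1% of its fragments with HB High of replicate 1, against 1.61% with Medium of its own replicate. As a result the high set of replicate 1 held 36.2% of the Low set of replicate 1 and 37.0% of that of replicate 2. No pair was close to identical, so each list was counted as 1 sample. Results are given below as labelled, and the main ones also without replicates 2 and 3, without HB Low of replicate 2 and without HB High of replicate 3.

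**Figure D1:**
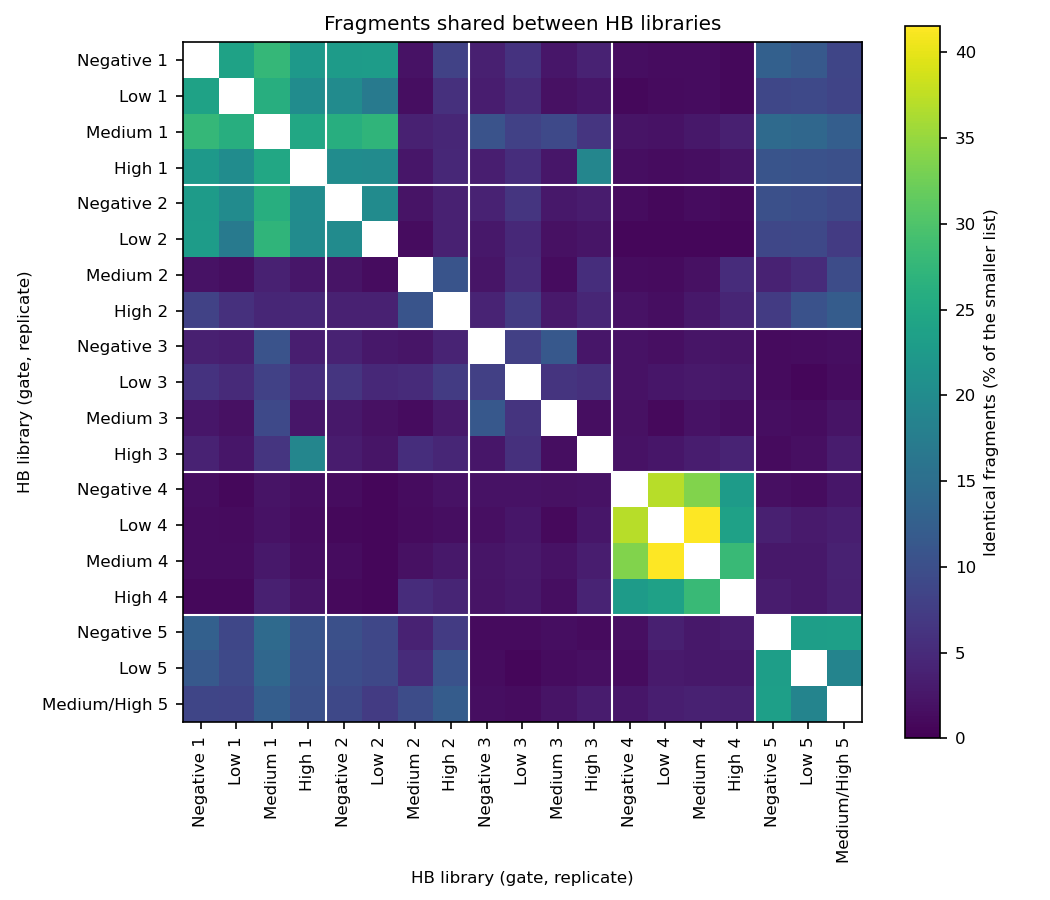
Identical fragments between each pair of the 19 HB libraries, as percent of the smaller list (colour scale), with white lines between replicates. The lists labelled Low and Negative of replicate 2 stand with those of replicate 1 (17.0% to 27.2% for Low), and High of replicate 3 shares 19.1% with High of replicate 1.

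The share of fragments from promoters was similar on both sides. It was 72.0%, 70.9%, 68.1%, 66.98% and 69.7% in the high sets of replicates 1 to 5, and 73.4%, 73.3%, 66.6%, 75.0% and 69.1% in the Low sets. The high sets were lower in 3 of 5 replicates and the groups overlapped throughout. The means were 69.5% ± 2.03 on the high side and 71.5% ± 3.50 in the Low gate (SD, n = 5), a difference of -1.95 percentage points that was smaller than the spread between replicates (p = 0.317, or 0.913 adjusted over the 12 measures, in a two-sided permutation test that is exact). A single one of the 12 measures cannot go below an adjusted p of 0.0952 in this permutation test. Replicate 4 had the largest difference, -8.00 points, and without it the difference was -0.43 points. With Medium left out of the high side it was -3.34 points (exact permutation, p = 0.198). It was -2.94 points without replicates 2 and 3, -1.49 without HB Low of replicate 2 and -1.10 without HB High of replicate 3. The Negative lists, the background of cells without YFP, held 71.8% ± 1.80 promoter fragments (SD, n = 5).

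The distance from a fragment to the nearest annotated transcription start was slightly greater on the high side. The median over all fragments was 137, 138, 154, 153 and 146 bp in the high sets and 131, 131, 158, 119 and 142 bp in the Low sets. It was greater on the high side in 4 of 5 replicates, with 34 bp in replicate 4 and under 7 bp in the others. The means were 146 bp ± 8.09 and 136 bp ± 14.6 (SD, n = 5), a difference of 9.40 bp (p = 0.230 and adjusted p = 0.913, two-sided exact permutation). Without replicate 4 the difference was 3.34 bp, and with Medium left out of the high side it was 18.5 bp (exact permutation, p = 0.143). It was 14.6 bp without replicates 2 and 3, 8.11 without HB Low of replicate 2 and 6.26 without HB High of replicate 3.

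Among distal fragments alone, the distance to a start showed no common direction. The median was 5887, 6136, 6021, 5680 and 6226 bp in the high sets and 5866, 5735, 6652, 4913 and 7324 bp in the Low sets. The high side was farther in 3 replicates and nearer in 2, and the Low sets spanned the whole range of the high sets. The difference of the means was -108 bp, with an SD of 758 bp over the differences within replicates (p = 0.810 and adjusted p = 0.913, two-sided exact permutation). The deposited distal lists also held fragments near annotated starts, with 5.28% ± 0.453 of distal fragments on the high side and 5.36% ± 0.671 in Low under 100 bp from a start in GENCODE. The sign of the difference turned when distance was taken to starts of protein-coding transcripts, where the high side was 535 bp farther (exact permutation test, adjusted p = 0.794).

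The gene context of distal fragments was alike to within 1 percentage point in the means. On the high side 15.3% ± 0.764 of distal fragments had their middle in an exon, 43.5% ± 2.09 in an intron and 41.2% ± 1.73 between genes (SD, n = 5). In the Low gate the shares were 15.2% ± 2.21, 43.8% ± 1.34 and 41.0% ± 2.98. The differences were 0.12, -0.35 and 0.23 points, each higher in 2 or 3 of 5 replicates (exact two-sided permutation tests, p = 0.913, 0.762 and 0.881, adjusted p = 0.913 for each). In the Negative lists the shares were 15.5%, 44.5% and 39.9%. The range of exon shares was wider in the Low sets, from 12.1% in replicate 5 to 18.2% in replicate 4, than in the high sets, from 14.6% to 16.6%.

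Fragment length was the measure in which both sides lay farthest apart. Distal fragments had a median length of 194, 168, 183, 187 and 174 bp in the high sets and of 204, 202, 159, 237 and 197 bp in the Low sets. They were shorter on the high side in replicates 1, 2, 4 and 5 with differences from -49.9 to -9.70 bp, and longer in replicate 3 (24.2 bp), whose Low list held 1239 fragments. In replicate 3 the High library alone had a median of 154 bp and the Medium library 202 bp, against 159 bp in Low. The means were 181 bp ± 10.4 and 199.9 bp ± 27.7 (SD, n = 5), a difference of -18.6 bp (p = 0.198 and adjusted p = 0.913, two-sided exact permutation). Without replicate 3 the groups did not overlap and the difference was -29.2 bp, at the smallest p that 4 against 4 can give (exact permutation, p = 0.0286), which gives an adjusted p of 0.343, the smallest that a single measure can reach in this design. Without replicate 4 it was -10.7 bp. With Medium left out of the high side it was -22.8 bp (exact permutation, p = 0.127). It was -27.7 bp without replicates 2 and 3, with p = 0.1 in the exact test of 3 against 3, the smallest that design can give. It was -18.0 bp without HB Low of replicate 2 and -14.7 bp without HB High of replicate 3.

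Promoter fragments followed the same order by a smaller amount. Their median length was 210.2, 199.9, 208, 220.5 and 191 bp in the high sets and 216, 214, 196, 240.0 and 206 bp in the Low sets. The high side was shorter in 4 of 5 replicates, again with replicate 3 the other way. The means were 206 bp ± 11.1 and 214 bp ± 16.4 (SD, n = 5), a difference of -8.35 bp (p = 0.397 and adjusted p = 0.913, two-sided exact permutation). Without replicate 3 it was -13.5 bp, and it was -13.3 bp without replicates 2 and 3. With Medium left out of the high side it was -11.9 bp (exact permutation, p = 0.238).

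Short fragments under 150 bp, too short to span a nucleosome with its linker, made up more of the high sets. Their share was 26.4%, 34.3%, 29.7%, 29.1% and 38.4% in the high sets and 20.0%, 21.4%, 36.2%, 17.0% and 29.1% in the Low sets. The high side was above the Low gate by 6.40 to 12.8 points in 4 replicates, and below it in replicate 3 (-6.49 points). In replicate 3 the share was 41.0% in the High library alone and 21.4% in the Medium library, against 36.2% in Low. The means were 31.6% ± 4.76 and 24.7% ± 7.79 (SD, n = 5), a difference of 6.84 points (p = 0.159 and adjusted p = 0.913, two-sided exact permutation). It was 10.2 points without replicate 3, 9.29 without replicates 2 and 3, 6.01 without HB Low of replicate 2 and 5.20 without HB High of replicate 3. With Medium left out of the high side it was 8.54 points (exact permutation, p = 0.111). The Negative lists resembled the Low lists, with 23.8% ± 4.04 of short fragments (SD, n = 5). In the cloned HB plasmid pool in the reporter vector, 13.4% of the 1944435 fragments were under 150 bp and the median length was 233 bp. That pool was not filtered for open chromatin, so its values are not directly comparable with those of the sorted lists.

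**Figure D2:**
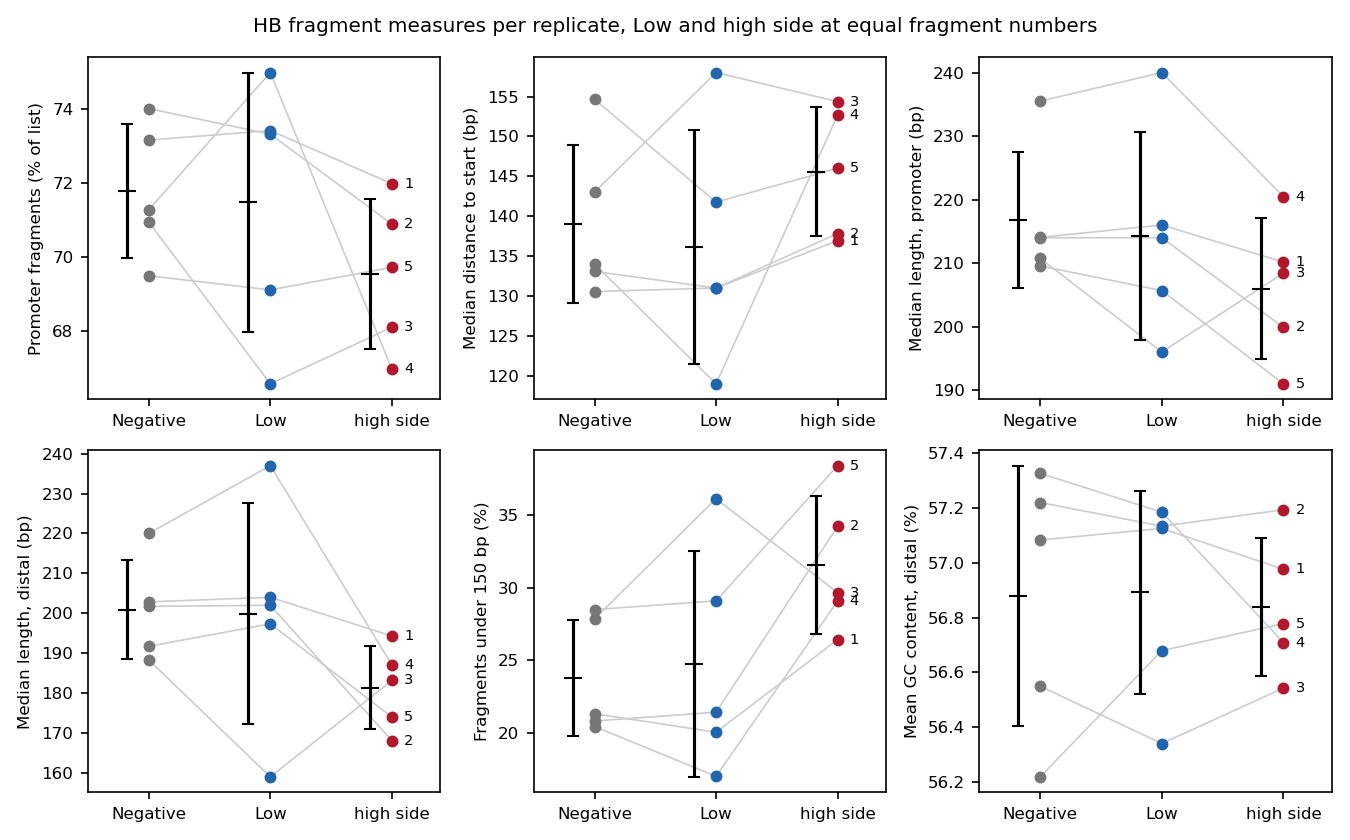
Fragment measures (vertical axes, with units) in the Negative, Low and high sets of the 5 HB replicates, as points joined within a replicate and numbered at the right, with the mean and SD as black bars. Vertical axes do not start at 0. In replicates 1, 2, 4 and 5 the high set has shorter distal fragments and more fragments under 150 bp than the Low set, and in replicate 3 it has the opposite.

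The length classes were compared to describe where the sets lay apart. Among distal fragments, those of 68 to 99 bp made up 17.4% ± 2.28 of the high sets and 11.9% ± 4.44 of the Low sets, and those of 100 to 149 bp made up 23.2% ± 2.401 and 19.1% ± 6.34 (SD, n = 5). Both classes were larger on the high side in 4 of 5 replicates. Fragments of 250 to 299 bp made up 10.1% ± 1.09 of the high sets and 13.2% ± 2.50 of the Low sets, and the high side was larger in 1 of 5. The longest distal fragments, of 400 to 600 bp, made up 2.72% ± 0.853 and 3.54% ± 2.96, and the high side was larger in 3 of 5, while Low replicate 4 had 8.75%. Among promoter fragments the lengths from 300 to 399 bp made up 10.6% ± 4.24 and 12.4% ± 5.30, and the high set was smaller in all 5 replicates. These classes were described and not tested one by one.

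**Figure D3:**
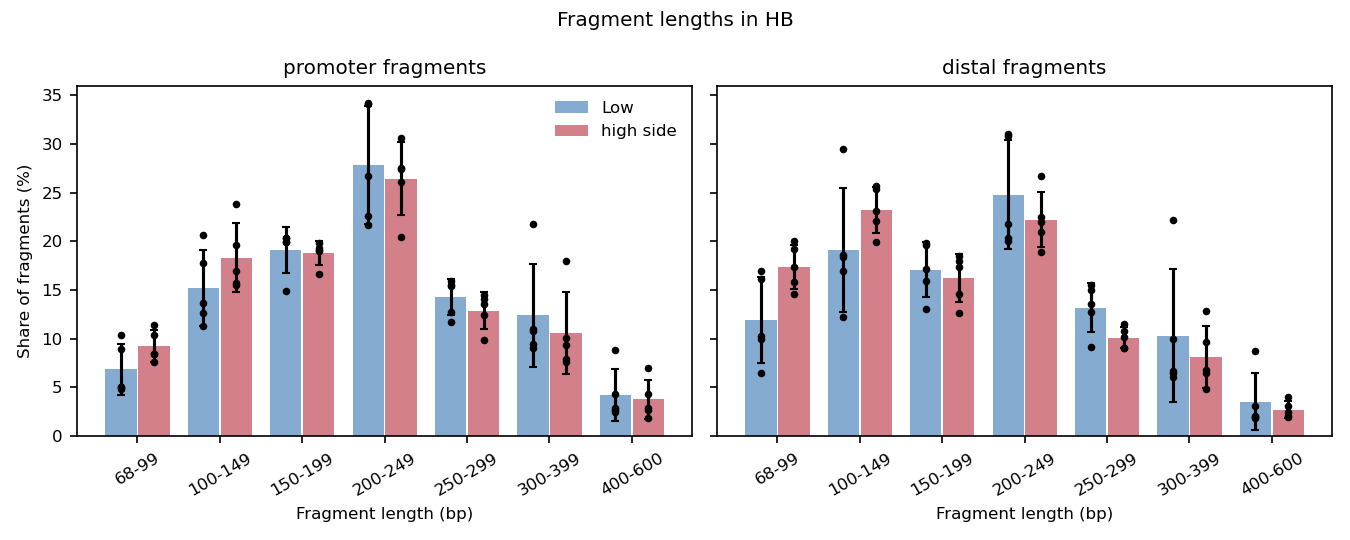
Share of promoter fragments (left) and distal fragments (right) in 7 length classes in bp (horizontal axis), as bars for the mean of the 5 Low and 5 high HB sets with SD, and points for single sets. The classes under 150 bp are higher in the high sets on average, and in distal fragments of 100 to 149 bp Low replicate 3 (29.5%) lies above all high sets.

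Fragments found on both sides of a replicate were compared with those found on 1 side. Between 4.68% (replicate 2) and 37.8% (replicate 4) of the smaller set occurred on both sides, which were 107 to 12875 fragments. Distal fragments of both sides had a median length of 204 bp ± 41.7, against 171 bp ± 17.6 for those seen on the high side alone and 198 bp ± 25.3 for those seen in Low alone (SD, n = 5 replicates). The shares under 150 bp were 22.9% ± 9.87, 33.9% ± 5.86 and 25.9% ± 7.42. Of the fragments on both sides, 51.9% ± 18.7 were also in the Negative list of the replicate, against 7.31% ± 5.995 and 11.3% ± 6.35 of those on the high side alone or in Low alone. With fragments of both sides left out, the difference in distal length was -26.2 bp (p = 0.0952 and adjusted p = 0.619, two-sided exact permutation).

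The single gates of replicates 1 to 4 were set side by side to see whether a measure moved step by step with YFP. The median length of distal fragments was 204 bp ± 12.3 in Negative, 200.5 bp ± 31.98 in Low, 188.5 bp ± 26.5 in Medium and 177.5 bp ± 18.4 in High (SD, n = 4). Within replicates the order was not regular, and Medium lay between Low and High in 1 of 4. The share under 150 bp was 22.5% ± 3.404, 23.6% ± 8.55, 26.9% ± 7.94 and 32.1% ± 7.27. Promoter fragments made up 72.3% ± 1.49, 72.1% ± 3.74, 71.8% ± 0.849 and 67.7% ± 4.78, where the lower mean of High rested on 62.5% in replicate 3 and 64.8% in replicate 4. Over the 11 measures the smallest p between High and Low was 0.171 (exact two-sided permutation tests, adjusted p = 0.629 or above), where a single measure of 4 against 4 cannot go below an adjusted p of 0.314.

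**Figure D4:**
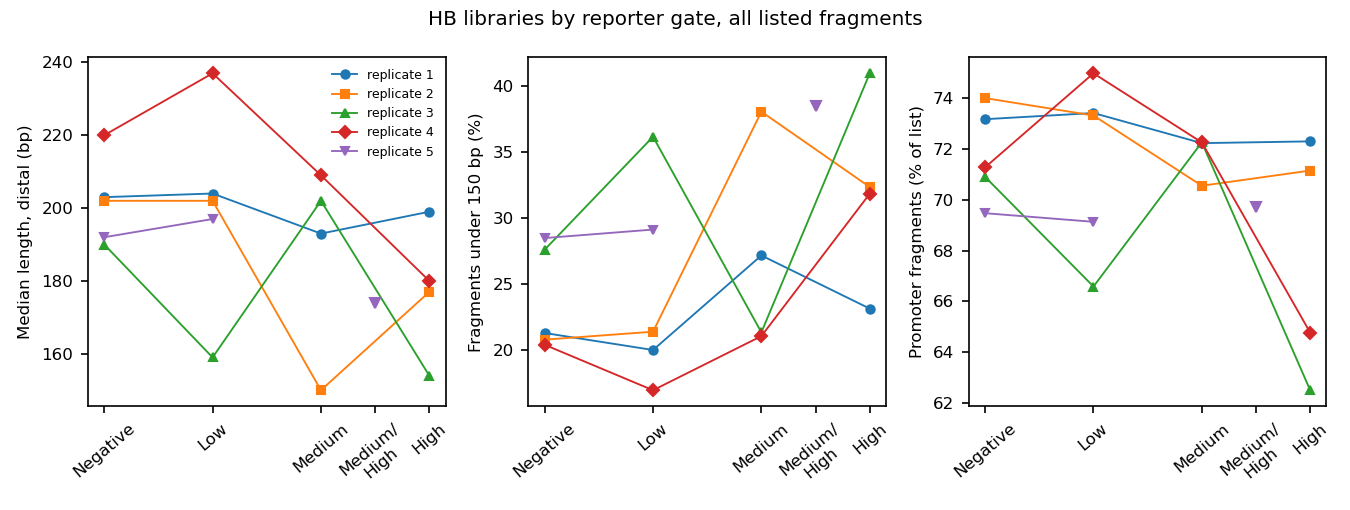
Median length of distal fragments in bp, share of fragments under 150 bp and share of promoter fragments in each HB library by gate (horizontal axis), with a line and symbol for each replicate and the Medium/High gate of replicate 5 as a separate point. Vertical axes do not start at 0. High lies below Low in distal length in all 4 replicates (154 to 199 bp against 159 to 237 bp), while Medium does not keep to the order.

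GC content differed by less than 0.2 percentage points between the sides in the lists as a whole. Promoter fragments had a mean GC content of 65.6% ± 0.414 on the high side and 65.8% ± 0.376 in Low, and distal fragments had 56.8% ± 0.252 and 56.9% ± 0.370 (SD, n = 5). Both differences missed the threshold (exact two-sided permutation tests, p = 0.540 and 0.817, adjusted p = 0.913 for each). The sign of the distal difference turned under several settings. In fragments of 150 to 250 bp alone the distal difference was -0.54 points (exact permutation, p = 0.119), and with Medium left out of the high side the promoter difference was -0.31 points (p = 0.238, exact permutation).

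The number of separate loci, counted as groups of overlapping fragments, was compared at equal numbers of fragments. Per 100 fragments it was 45.6, 47.8, 95.9, 87.1 and 95.4 in the high sets and 43.7, 44.7, 93.7, 78.4 and 95.4 in the Low sets, higher on the high side in 4 of 5 replicates. The mean difference was 3.15 loci (p = 0.730 and adjusted p = 0.913, two-sided exact permutation). That test sets the difference against the spread between replicates (SD 25.5 on each side), which differ in the number drawn. The differences within replicates had an SD of 3.30 (exact sign-flip test, p = 0.125, smallest possible p 0.0625). Small sets have few fragments per locus, so values are compared within a replicate. With equal draws, 77.1% of the promoter loci of the high set of replicate 1 were also hit in its Low set, and 74.0% in replicate 2, 9.50% in replicate 3, 41.9% in replicate 4 and 25.9% in replicate 5. For distal loci the shares were 43.0%, 35.3%, 3.46%, 23.0% and 17.7%. As shares of the Low loci they were 78.4%, 75.1%, 10.0%, 41.1% and 26.2% for promoters and 46.5%, 40.4%, 3.33%, 33.5% and 17.3% for distal loci.

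Sequence motifs were counted as matches per 10000 bp in both classes, so that length does not set the value. Besides those spelled out above, the search used the GATA factor site (AGATAA), the SOX site (CATTGT), RUNX (TGTGGT), TEAD (GGAATG), AP-1 (TGANTCA), the OCT site (ATGCAAA), the T-box (GGTGTGA), FOX (TGTTTAC) and CRE (TGACGTC), on both strands. Promoter and distal fragments differed on each side, which is given as a description of the lists. SP/KLF had 52.8 matches per 10000 bp in promoter fragments and 15.2 in distal fragments of the high side, and 52.0 and 16.2 in Low. GATA had 1.04 and 4.79 on the high side and 0.965 and 4.90 in Low, and RUNX had 3.65 and 8.03 against 3.68 and 7.92. Between the sides, 0 of 14 motifs passed in promoter fragments and 0 of 14 in distal fragments (exact two-sided permutation tests, smallest adjusted p = 0.963 and 0.704, with 0 of 14 at an unadjusted p under 0.05 in each class). A single motif cannot go below an adjusted p of 0.111 in this permutation test.

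AP-1, the site of FOS and JUN dimers, had the smallest p in both classes. In distal fragments its density was 4.17, 4.34, 4.11, 3.21 and 4.16 in the high sets and 4.07, 4.25, 2.99, 3.15 and 2.94 in the Low sets. It was higher on the high side in all 5 replicates, by under 0.1 in replicates 1, 2 and 4, and the groups overlapped. The difference of the means rests mostly on replicates 3 and 5, whose Low lists held only 414 and 321 distal fragments. The means were 4.00 ± 0.450 and 3.48 ± 0.627 (SD, n = 5; p = 0.119 and adjusted p = 0.704, two-sided exact permutation), and the Negative lists had 4.07. In promoter fragments the means were 1.28 ± 0.208 and 1.14 ± 0.060 (exact permutation test, p = 0.0952, or 0.963 adjusted), and without replicate 5, which held the value of 1.65, the difference was 0.04. This sign turned in fragments of 150 to 250 bp, where it was -0.14.

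The next motifs by p were CRE and NFY in distal fragments and SP/KLF and CRE in promoter fragments. CRE, bound by CREB and ATF proteins, had 1.14 ± 0.130 matches per 10000 bp on the high side and 1.34 ± 0.296 in Low in distal fragments, and was lower on the high side in 4 of 5 replicates. In promoter fragments it had 2.77 ± 0.370 and 3.12 ± 0.402. NFY, the CCAAT-binding complex, had 4.18 ± 0.455 and 3.77 ± 0.561 in distal fragments. SP/KLF had 52.8 ± 0.950 and 52.0 ± 0.734 in promoter fragments, higher on the high side in 4 of 5. The p-values were 0.198, 0.206, 0.222 and 0.198 in this order (exact two-sided permutation tests, n = 5). Among motifs of the hemangioblast program in distal fragments, ETS had 3.98 ± 0.665 on the high side and 3.602 ± 0.437 in Low, higher on the high side in 4 of 5 replicates. The E-box had 31.05 ± 2.05 and 30.4 ± 1.42 (higher in 4 of 5), and GATA had 4.79 ± 0.278 and 4.90 ± 0.628 (higher in 2 of 5). Their p-values were 0.365, 0.611 and 0.746 in this order (exact two-sided permutation tests).

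**Figure D5:**
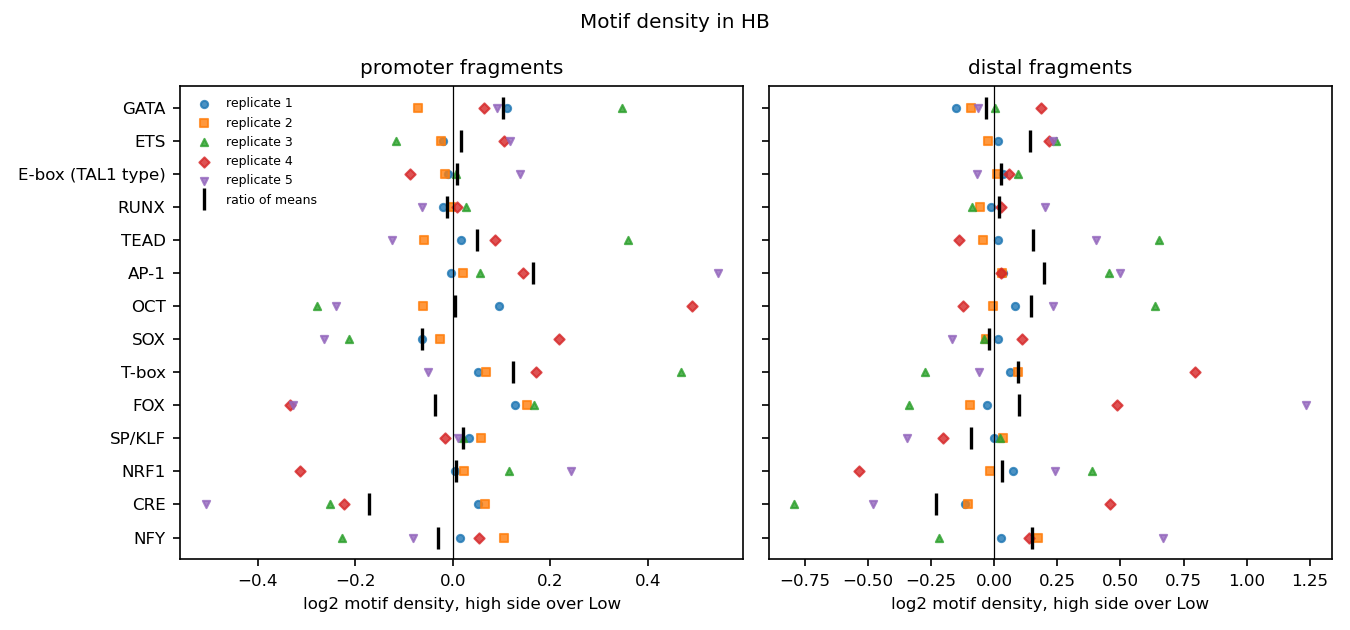
Log2 ratio of motif density on the high side over Low (horizontal axis) for 14 motifs in promoter (left) and distal (right) HB fragments, with a symbol for each of the 5 replicates and a black bar for the ratio of the means. AP-1 in distal fragments lies right of 0 in all 5 replicates, by a small amount in replicates 1, 2 and 4.

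Single loci were compared to ask whether any piece of the genome was listed more often on 1 side. Overlapping fragments merged into 15048 promoter loci (median width 550 bp) and 23141 distal loci (250 bp). Of these, 9039 promoter and 4100 distal loci were hit in 4 or more of the 10 sets and were tested. Levels are fragments per 10000 listed fragments of a set, without equal draws, and differences are on the log2 scale with 1 added. No promoter locus (0 of 9039, 0.0%) and no distal locus (0 of 4100, 0.0%) passed an adjusted p of 0.05 in limma, in either direction. Loci that differ can be missed here, since a set may hold only a few fragments of a locus. The counts of 0 therefore do not show that the loci are alike. At an unadjusted p under 0.05 there were 82 promoter loci (0.907%), 74 higher and 8 lower on the high side, and 86 distal loci (2.1%), all of them higher. After equal draws there were 15 of 6096 promoter loci and 1 of 1568 distal loci. The high sets pool 2 libraries in replicates 1 to 4, and 66.2% of promoter and 60.3% of distal loci had a higher mean on the high side, with a median difference of 0.10 and 0.05. A single fragment counts 10.1 per 10000 in the high set of replicate 5 and 0.101 in that of replicate 1, so small sets weigh heavily in each difference.

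The promoter loci that ranked first for the high side were those of Ints2, Cep192 and Syngr2, none past the threshold. The Ints2 locus (chr11:86257148-86257771), over the start of a gene for a subunit of the Integrator complex, had 4, 1, 2, 1 and 1 fragments in the high sets of replicates 1 to 5 and 0 in each Low set. It was found in all high sets and no Low set, with levels of 0.404, 0.111, 0.552, 2.41 and 10.1 per 10000 (log2 difference 1.30 ± 0.54 SE, limma adjusted p = 1.00). All high sets lay above all Low sets at 6 of the 9039 tested promoter loci, and below them at 1. With all Low sets at 0 the size of the difference depends on the value added before taking log2, and it was 2.48 with 0.25 added. The Cep192 locus (chr18:67799745-67800540), over the start of a gene for a centrosome protein, had 10, 6, 4, 0 and 1 fragments against 0 in each Low set. The Ints2 and Cep192 loci passed the filter of 4 sets through high sets alone, and neither was left in the test after equal draws. The Syngr2 locus (chr11:117810101-117811091) had 9, 9, 3, 1 and 2 fragments on the high side and 1, 1, 0, 0 and 0 in Low. Its 22 distinct fragments lay in an intron, with the middle 884 bp downstream of the start, and its log2 difference was 1.65 ± 0.71 (SE).

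The promoter loci that ranked first for the Low side were those of Ttc39c, Mpdu1 and Bmpr1a. The Mpdu1 locus (chr11:69662243-69662900), over the start of the gene, was found in all 5 Low sets, with 2, 7, 2, 1 and 1 fragments, and in 3 high sets, with 12, 8, 5, 0 and 0. Its levels were 0.563, 2.09, 16.1, 3.59 and 9.62 per 10000 in Low and 1.21, 0.890, 1.38, 0 and 0 on the high side (log2 difference -1.73 ± 0.84 SE, limma adjusted p = 1.00). In replicate 1 the level was higher on the high side, and in the other replicates it was higher in Low. The Bmpr1a locus (chr14:34502585-34503098), over the start of a receptor gene needed for mesoderm, had 0, 2, 1, 0 and 1 fragments in Low and 3, 3, 0, 0 and 0 on the high side (log2 difference -1.29 ± 0.62 SE). Its levels were 0, 0.597, 8.07, 0 and 9.62 per 10000 in Low and 0.303, 0.334, 0, 0 and 0 on the high side. Replicate 1 was thus higher on the high side, and replicate 4 had none on either side. The Ttc39c locus (chr18:12643219-12643883) had 3, 4, 0, 1 and 1 fragments in Low and 4, 0, 1, 0 and 0 on the high side.

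Among distal loci, those of Rgs3, Calcoco1 and Dsn1 ranked among the first for the high side. Each was found in the high sets of replicates 1 to 4 and in no Low set. They thus passed the filter of 4 sets through high sets alone, and none was left in the test after equal draws. The Dsn1 locus (chr2:157030752-157031254), 23849 bp upstream of the start of a kinetochore gene, had 3, 2, 4, 1 and 0 fragments on the high side (log2 difference 0.70, adjusted p = 1.00 in limma). The Rgs3 locus (chr4:62697408-62698043), 2970 bp upstream of the start of a gene for a regulator of G-protein signals and with all 11 distinct fragments in an annotated exon, had 6, 2, 2, 1 and 0. The Calcoco1 locus (chr15:102692902-102693237), 16833 bp downstream of the start of the gene and between genes, had 4, 4, 2, 1 and 0. With all Low sets at 0, the size of these differences depends on the 1 that was added before taking log2.

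For the Low side, the distal loci of Plxna2 and Lasp1 ranked among the first, none past the threshold (adjusted p = 1.00 in limma). The Plxna2 locus (chr1:194025160-194025354) was 1 distinct fragment, listed in 3 Low sets and 1 high set, 594568 bp upstream of the start of a semaphorin receptor gene. The Lasp1 locus (chr11:97825169-97825522), in an intron of a gene for an actin-binding protein, had 2 distinct fragments, in 3 Low sets and 1 high set.

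Loci near genes of the hemangioblast and of neighbouring programs were described by 7 lists, with each fragment given to the gene of the nearest protein-coding start. No tested locus of any list passed in limma, against 0.0% of all loci. For the 19 hemangioblast and mesoderm factors, all of which had fragments, 11 of 14 promoter loci and 11 of 17 distal loci had a higher mean on the high side, with median log2 differences of 0.17 and 0.05, beside 0.10 and 0.05 over all tested loci. For this and the other lists, the share of all tested loci with a higher mean on the high side, 66.2% of promoter and 60.3% of distal loci, is the background to such counts. The summed level of the list was 19.1, 17.1, 19.9, 21.7 and 10.1 per 10000 in the high sets and 17.7, 18.5, 8.07, 21.5 and 48.1 in the Low sets. The value of 48.1 in Low replicate 5 rests on 1040 fragments. Lyl1, a partner of LMO2 related to TAL1, had 23, 11, 4, 1 and 0 fragments on the high side and 7, 6, 0, 0 and 2 in Low. Hand1, a factor of extra-embryonic and cardiac mesoderm, had 21, 18, 8, 0 and 0 against 5, 8, 0, 0 and 0. Gata2, needed for blood progenitors, had 10, 16, 8, 2 and 0 against 4, 6, 0, 1 and 0. Fli1, an ETS factor, had 18, 10, 5, 1 and 0 against 6, 5, 1, 2 and 0. These numbers follow the sizes of the sets. On the high side the mean levels of Lyl1, Hand1, Gata2 and Fli1 were 1.41 ± 0.994, 1.27 ± 1.16, 1.96 ± 1.81 and 1.34 ± 0.898 per 10000 (SD, n = 5). In Low they were 4.60 ± 8.23, 0.759 ± 1.09, 1.30 ± 1.49 and 3.69 ± 3.67. Lyl1 was higher on the high side in 3 replicates and lower in 2, Hand1 in 2 and 1, Gata2 in 2 and 2, and Fli1 in 1 and 3. Levels of all 4 genes overlapped between the groups.

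Of the 17 endothelial genes, 16 had fragments and Tie1 had none. Their promoter loci were higher on the high side in 4 of 7 and their distal loci in 10 of 17, with median log2 differences of 0.11 and 0.06. The summed level was 12.6 ± 2.54 per 10000 on the high side and 14.6 ± 3.27 in Low (SD, n = 5). Sox7, a SOX factor of early endothelium, was higher on the high side in 4 replicates, with levels of 1.41, 1.22, 1.10, 2.41 and 0 against 0.844, 0.895, 0, 0 and 0. In the Low sets of replicates 3 and 4 a single fragment counts 8.07 and 3.59 per 10000, so a 0 there does not show a lower level. Ets1 had 2.52, 1.89, 2.48, 2.41 and 0 against 2.53, 1.79, 0, 0 and 0. The means of Notch1, a receptor that guides arterial fate, were 1.34 ± 1.24 and 1.81 ± 1.71, and those of Flt1, a VEGF receptor, were 0.929 ± 0.864 and 2.51 ± 4.05.

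Of the 16 blood genes, 15 had fragments and Gata1 had none. Promoter loci were higher on the high side in 9 of 12 and distal loci in 8 of 13, with medians of 0.11 and 0.05. Runx1, the factor that starts the blood program in hemogenic endothelium, had 84 fragments over the 10 sets, 58 of them distal. Its levels were 2.73, 2.56, 3.31, 2.41 and 0 per 10000 on the high side and 2.53, 3.28, 0, 0 and 9.62 in Low, with overlap and no common direction. Meis1, a homeobox factor of blood progenitors, had levels of 2.02, 3.12, 3.31, 2.41 and 0 on the high side and 1.69, 1.19, 0, 0 and 0 in Low, higher in 4 replicates and equal at 0 in the fifth. In the Low sets of replicates 3 and 4, where Meis1 had 0, a single fragment would count 8.07 and 3.59, so these 2 replicates do not show a lower level. The 3 tested distal loci of Meis1 all had a higher mean on the high side. At least 1 of them passed the filter of 4 sets through high sets alone and was not left in the test after equal draws. Its direction was thus set by the filter and adds no support. The means of Itga2b, the CD41 integrin chain, were 1.61 ± 1.03 and 1.59 ± 1.57, and those of Mecom were 1.51 ± 0.899 and 4.54 ± 8.26 (SD, n = 5), where Low replicate 5 had 2 fragments.

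Of the other lists, all 11 cardiac genes had fragments, and 4 of 5 promoter and 6 of 9 distal loci were higher on the high side (medians 0.28 and 0.06). Gata6, a factor of cardiac mesoderm and endoderm, had levels of 1.82, 2.23, 2.48, 0 and 0 against 1.41, 0.895, 0, 0 and 0. Mef2c had 1.82, 2.23, 3.04, 2.41 and 0 on the high side and 4.50, 5.37, 0, 7.18 and 0 in Low, higher in Low in 3 replicates. Gata4 and Hand2 had means of 2.43 ± 2.83 and 0.744 ± 0.762 on the high side and 1.25 ± 1.65 and 0.291 ± 0.416 in Low. All 12 pluripotency factors had fragments, with 4 of 6 promoter and 5 of 8 distal loci higher (medians 0.22 and 0.12). Tbx3, a T-box factor of ES cells and mesoderm, had 26, 32, 11, 4 and 0 fragments on the high side and 5, 5, 0, 0 and 0 in Low. Its levels were 2.63, 3.56, 3.04, 9.65 and 0 against 1.41, 1.49, 0, 0 and 0, higher in 4 replicates. Esrrb, an orphan nuclear receptor of ES cells, was also higher in those 4 replicates, with means of 1.28 ± 1.00 and 0.295 ± 0.517. For Tbx3 and Esrrb the Low sets of replicates 3 and 4 held no fragment, where 1 would count 8.07 and 3.59 per 10000. Klf2 and Klf4 had means of 1.54 ± 1.43 and 1.41 ± 0.970 on the high side and 2.43 ± 3.32 and 2.31 ± 3.34 in Low.

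The 14 genes of AP-1 and TEAD factors all had fragments, and 8 of 10 promoter and 10 of 18 distal loci were higher on the high side (medians 0.08 and 0.04). The summed level was lower on the high side in 4 of 5 replicates, with means of 20.8 ± 5.00 and 24.4 ± 2.88 per 10000 (SD, n = 5). Fos held 146 fragments over the 10 sets, 125 of them distal, the largest number of any gene named from the lists. Its levels were 5.15, 5.01, 3.59, 2.41 and 0 on the high side and 4.78, 4.77, 0, 7.18 and 9.62 in Low, with no common direction. The means of Jun, Jund and Tead1 were 2.45 ± 2.86, 3.05 ± 4.02 and 1.53 ± 1.05 on the high side and 3.03 ± 3.94, 3.63 ± 3.16 and 1.27 ± 1.77 in Low. Of 79 ribosomal protein genes, taken as genes active in every cell, 73 had fragments. Promoter loci were higher in 35 of 52 and distal loci in 11 of 19 (medians 0.12 and 0.05), and the summed level was 52.9 ± 5.72 and 53.4 ± 6.58. Rpl27, Rpl38, Rps29 and Rps24 held most fragments, with means of 4.42, 2.46, 1.27 and 2.16 on the high side and 3.65, 2.08, 2.36 and 1.35 in Low.

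The differences between the high and Low sets were also taken in ES cells and in HE1, to ask whether those of HB were particular to it. The median length of distal fragments differed by -18.6 bp ± 28.04 in HB, -9.32 bp ± 14.1 in ES and -40.6 bp ± 51.6 in HE1 (SD of the differences within replicates, n = 5). Promoter shares differed by -1.95 points ± 3.73 in HB, -3.87 ± 3.66 in ES and -2.397 ± 1.59 in HE1. The share under 150 bp was higher by 6.84 points ± 7.87 in HB, 3.22 ± 5.90 in ES and 10.8 ± 10.3 in HE1. The distance of distal fragments to a start differed by -108 bp ± 758 in HB, 556 bp ± 386 in ES, where the high side was farther in all 5 replicates, and 461 bp ± 532 in HE1. Loci per 100 fragments differed by 3.15 ± 3.30 in HB and -3.72 ± 7.01 in HE1, the comparison with the smallest p (exact permutation, p = 0.0714). None of the 24 comparisons of HB with ES or HE1 passed the threshold (exact two-sided permutation tests, smallest adjusted p = 0.940), and a single one could not go below an adjusted p of 0.190.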

How the data were processed

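Per the labels and the study's methods, fragments were amplified from DNA of sorted cells by PCR and sequenced in pairs. The authors trimmed reads (Trim Galore), mapped them to mm10 (Bowtie2), kept pairs of mapping quality 40 (SAMtools), turned them into fragments (bedtools), removed duplicates, filtered fragments against HM-1 controls, plasmid pools and open chromatin, and split them into promoter and distal lists. HOMER is also named in the submitters' processing notes, with no role given. The sorted lists were deposited as coordinates only, without read counts. The plasmid and control lists were deposited by the authors with read counts per fragment, not normalized, and only their coordinates were used. Plasmid and control starts were moved by 1 bp, after which 80.7% of distinct sorted fragments had an identical plasmid fragment, against 3.54% as deposited. The rest had none, and some HB fragments were identical to HM-1 ones, so the lists do not fully match the filters described. The cause was not tested. PCR can lose fragments at random, and the number of cells per gate is not known, so fragment measures and motif densities were compared after equal draws (100 draws). Single loci, gene lists, single gates and the fragments found on both sides were compared with all listed fragments. Equal draws were an alternative for the single loci.

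Starts and genes came from GENCODE vM21, sequence and 300-base promoters from RefSeq (GRCm38.p6). Fragment measures and motif densities were tested by exact two-sided permutation over 252 arrangements of 5 against 5 (smallest p 0.00794), adjusted by Benjamini-Hochberg over 12 measures, 14 motifs per class or 24 stage comparisons. Loci were tested by limma 3.58.1 (lmFit, eBayes with trend) in R on log2 of fragments per 10000 plus 1. No count model was used, since no sorted list holds reads. Loci were named as the 3 of smallest p per class and direction with ties kept, genes as the 4 with most fragments per list, motifs as the 3 of smallest p per class. Sequences of chromosome 18 were not printed. Some loci and sequences that the rule named are not reported here. Members, lists and tests were chosen with earlier results of these data known. The alternatives without HB High of replicate 3, without HB Low of replicate 2 and without replicates 2 and 3 were added after seeing the data. The tests were tested on simulated data, where limma missed most of the loci that had been changed.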

Additional observations from a re-analysis of the deposited data

Results flagged for a closer look

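Of 62 groups of 5 sets checked, 11 had a set far from the rest. The chance rate of about 1 in 20 is for continuous values and does not hold for loci with few fragments. Where 1 set holds a fragment and the rest hold none, that set is flagged by arithmetic. The number flagged is therefore not read as an excess over chance. Among loci, high replicate 5 stood apart at Ints2 and Cep192 (10.1 fragments per 10000 in each) and Syngr2 (20.2), high replicate 4 at Rgs3 and Calcoco1 (2.41 each), and high replicate 1 at Plxna2 and Lasp1 (0.101 each). In Low, replicate 5 stood apart at Plxna2 (9.62) and replicate 3 at Lasp1 (8.07). All but the value of Syngr2, which counts 2, count 1 fragment. Among motifs, AP-1 stood apart in promoter fragments of high replicate 5 (1.65 matches per 10000 bp) and in distal fragments of high replicate 4 (3.21).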

How the results depend on the processing

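No measure, motif or locus passed an adjusted p of 0.05 in the alternatives run. For measures and motifs this says nothing about stability, since 5 against 5 allows a single measure an adjusted p of 0.0952 and a single motif 0.111 at best, and fewer sets or the block allow only larger values. The difference in distal length stayed negative, from -29.2 to -10.7 bp with 1 replicate left out, and that in the share under 150 bp stayed positive, from 5.34 to 10.2 points. The difference in loci per 100 fragments was -14.8 with all fragments instead of equal draws, where the sides differ in size (49.0 high and 93.7 Low in replicate 3). It was -3.46 without HB Low of replicate 2, where the high mean kept replicate 2, so that value is not a difference within replicates. With 1 replicate left out of both sides it was 1.76 to 3.95. GC content of distal fragments differed by 0.050 points without fragments of both sides, by 0.149 with plasmid fragments only and by 0.0076 without HB Low of replicate 2. The intergenic share differed by -0.16 points with plasmid fragments only. With promoters set within 1500 bp of an annotated start, exon, intron and intergenic shares differed by -0.19, 0.39 and -0.20 points. Distal distance to protein-coding starts differed by 535 bp. AP-1 density in promoter fragments differed by -0.14 in fragments of 150 to 250 bp. With 1 replicate left out, the ranges were -327 to 140 bp for distal distance, -0.66 to 0.56 points for the exon share, -0.98 to 0.079 for the intron share, -0.64 to 0.75 for the intergenic share, -0.28 to 0.018 for GC content of promoter fragments and -0.12 to 0.053 for distal fragments. The cause of these changes was not tested.

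Same-numbered high and Low sets deviated together over loci by r = 0.062 to 0.345, over 0.1 in all replicates but replicate 3. As 1 pair fell under that limit, and the labels do not say what a number shares, the numbers were not taken to pair the samples. Of the high sets, 2 of 5 correlated best with the Low set of their own number over promoter loci and 3 of 5 over distal loci, and 4 of 5 Low sets correlated best with the high set of their number in both classes. With the replicate as a block, 0 promoter and 0 distal loci passed in limma, with 172 and 22 at an unadjusted p under 0.05. The blocked p was 0.25 for distal length and 0.188 for the share under 150 bp (exact sign-flip test, smallest possible p 0.0625), and no call changed. Equal draws left 6096 promoter and 1568 distal loci, with 15 and 1 at an unadjusted p under 0.05. With 1 replicate left out, 2 to 96 promoter and 0 to 69 distal loci had an unadjusted p under 0.05, and none passed. With 1 replicate left out, 2 to 96 promoter and 0 to 69 distal loci had an unadjusted p under 0.05, and none passed. Small lists limit replicates 3, 4 and 5.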
